A study of Mus musculus with 6 samples.

Results

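Signalling by activin and Nodal runs from paired serine/threonine kinase receptors to Smad2 and Smad3, and the pathway is restrained by proteins that act on the receptors, on the Smads and at the target genes. The 9 genes described here encode such proteins: Smad7, Pmepa1, Skil, Ski, Tgif1, Tgif2, Smurf1, Smurf2 and Spsb1. They were chosen by name, with earlier results of these data known. Counts of calls among them, set beside shares of all probe sets, are therefore a description. All probe sets annotated to them were taken. This gave 21 of the 45037 probe sets tested and 9 of the 18193 genes with a probe set of 1 symbol. Spsb1 was added because earlier results of these data showed it moving in opposed directions after the 2 treatments, so its values are given as a description with no test, and 17 probe sets of 8 genes were counted in the tests.

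The cells were of the mouse embryonic stem cell line E14Tg2a, so that all groups are 1 line in culture, and RNA was hybridised to 6 single-colour arrays. Cells received 10 ng/ml activin for 2 h (2 arrays), received 5 µM SB431542 for 24 h (2 arrays), or stayed untreated as control (2 arrays). Activin is a ligand of the pathway, and SB431542 inhibits the kinase of its type I receptors. All groups, control included, grew in N2B27 medium with 20 ng/ml BMP4 and 1000 U/ml LIF, and BMP4 signals through the related Smad1 and Smad5 proteins. The labels name no vehicle for the control cells and leave unsaid if arrays sharing a treatment came from separate cultures. Each p-value thus rests only on spread between these arrays, in part that of other probe sets, and may not cover spread between cultures.

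The inhibitory proteins work at separate steps, as background. Smad7 binds the activated type I receptor and brings the ubiquitin ligases Smurf1 and Smurf2 to it. Spsb1 is a SOCS box adaptor that directs a type II receptor of the TGF-beta family to ubiquitination, and Pmepa1 is a membrane protein that binds Smad2 and Smad3 and keeps them from the receptor. Ski, Skil, Tgif1 and Tgif2 bind Smad complexes on DNA and recruit histone deacetylases. Transcription of Smad7, Skil and Pmepa1 is itself induced by Smad signalling in many cell types, which makes them feedback inhibitors.

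The arrays carried the markers of the labelled cell type. All 10 embryonic stem cell markers listed, among them Pou5f1, Nanog and Sox2, stood above the highest value of the 27 probe sets for unspiked bacterial transcripts on every array, an intensity of 34. Their summed intensity was 55694 to 56356 on activin arrays, 48450 to 49488 on SB431542 arrays and 54657 to 55733 on control arrays. In SB431542 against control the intensity trend called 5 of these 10 lower and 1 higher, where it called 2.23% of all genes lower and 4.25% higher, and default limma called 0. The summed intensity of 12 trophectoderm markers was 11001 to 11306 on activin arrays, 18211 to 18479 on SB431542 arrays and 11812 to 13636 on control arrays. In SB431542 against control, limma with an intensity trend called 8 of these 12 markers higher and 0 lower, where it called 4.25% of all genes higher, and the default limma test called 1, beside 0.00550% of all genes higher. Cdx2, a defining factor of that lineage, was at a log2 difference of −0.11, beside a median of 0.66 over the 12. Elf5 had a mean log2 value of 4.28 in control, within the range of the bacterial probe sets. Cdx2 and Elf5 were named for their roles after their values were seen, and do not stand for the list. The summed intensity of 8 fibroblast markers was 467 and 523 on activin arrays, 307 and 306 on SB431542 arrays and 422 and 381 on control arrays, the same order of groups as for Smad7, Pmepa1 and Skil below. Between 1 and 3 of these 8 were under the bacterial intensity of 34 on any array. The intensity trend called 1 of the 8 lower and 0 higher after SB431542, beside 2.23% and 4.25% of all genes. After activin it called 0, beside 0.137% of all genes higher and 0.0110% lower. A single call among 8 is no result about the list. The summed intensity of 8 extraembryonic endoderm markers overlapped between the groups. The part of these other transcripts in the results below was not tested, and in bulk RNA fewer cells of a type and less RNA per cell cannot be told apart. Lefty2, a secreted Nodal antagonist and the standard readout of the pathway, had log2 values of 10.40 and 10.29 after activin, 3.81 and 4.00 after SB431542, and 8.96 and 8.95 in control. Its SB431542 values are under 5.09, the highest bacterial log2 value.

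Values below are the deposited intensities, given array by array, and a difference is a mean of log2 intensities minus the control mean. Each comparison was tested by limma, a linear model fitted to all 6 arrays and all probe sets, at 2 settings. The default setting, which is the main test, called 0 of the 17 probe sets in any comparison at an adjusted p under 0.05, where it called 0.0155% of all probe sets between SB431542 and control, 0% between activin and control and 0.0200% between activin and SB431542. The other setting lets the prior variance follow the intensity and is robust to outlying variances, and it is called the intensity trend. Beside 3 residual degrees of freedom, the prior carried 2.51 at the default setting and a median of 34.3 with the intensity trend. With the intensity trend, the variance used for most probe sets was thus set mainly by other probe sets of like intensity. A gene is said to have risen or fallen only where the intensity trend passed. Each SE is that of the default fit unless named otherwise, and the intensity trend used its own SE.

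**Figure D1:**
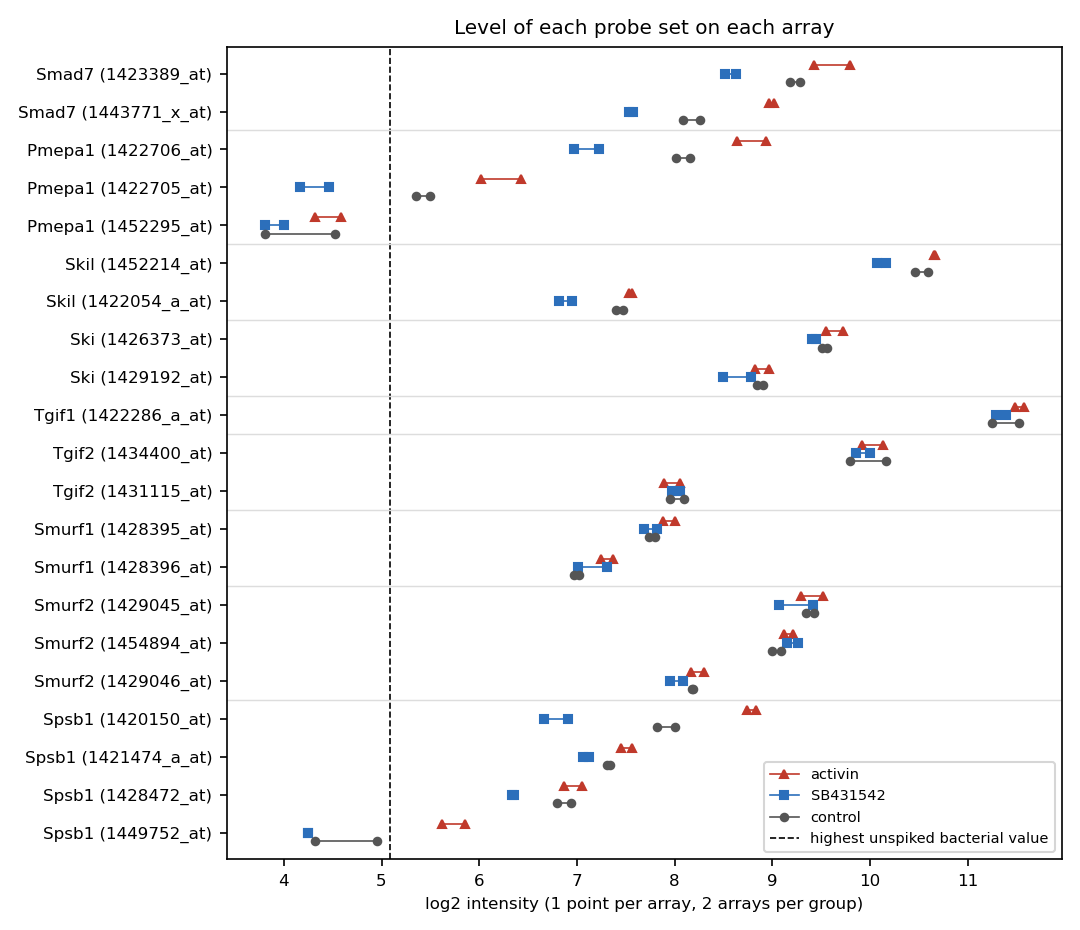
Log2 intensity of each of the 21 probe sets on each array (x axis), with 1 row per probe set, triangles for activin, squares for SB431542 and circles for control, and a line joining the 2 arrays of a group. The squares lie left of the circles in every row of Smad7 and Skil and in the 2 brighter rows of Pmepa1, while the groups interleave in the rows of Tgif2. The dashed line marks the highest bacterial value.

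SB431542 was set against control to see which of these genes differed after 24 h with the inhibitor. Loss of the Activin/Nodal signal cannot be told apart here from an effect of vehicle or of a changed mix of cells. By the intensity trend Pmepa1, Smad7 and Skil fell and the other 5 genes did not pass, while default limma called none of the 8. Pmepa1 (probe set 1422706_at) read 125 and 150 on the SB431542 arrays, against 286 and 258 on the control arrays. Both treated arrays lay well under both controls, and the mean fell to 7.10 ± 0.19 (SD, n = 2) on the log2 scale with SB431542, against 8.09 ± 0.11 in control. The difference was −0.99 (SE 0.17, default limma adjusted p = 0.182, intensity trend adjusted p = 3.6e-05), a level 1.98-fold lower. It passed in 11 of 11 further settings of the intensity trend, with adjusted p up to 0.0018.

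The other Pmepa1 probe sets were dimmer. Probe set 1422705_at, designed on the same accession, read 18 and 22 after SB431542, against 41 and 45 in control. The difference was −1.11 (SE 0.19, and 0.35 by the intensity trend). It missed the threshold by the intensity trend (adjusted p = 0.0529, with 0.0132 to 0.387 over 11 further settings). Its SB431542 values are under the highest bacterial intensity of 34, so the size of its difference is limited by background. The third, 1452295_at, was under that value on all 6 arrays and carries no usable level.

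Smad7 was measured by 2 probe sets, and both were lower after SB431542. Probe set 1423389_at read 365 and 396 after SB431542, against 580 and 622 in control. Probe set 1443771_x_at read 191 and 185 after SB431542, against 271 and 307 in control. The suffix of this second one marks probes that can bind related transcripts, and the annotation gives it no accession. The groups did not overlap in either probe set, and the differences were nearly equal, −0.66 (SE 0.17, default limma adjusted p = 0.257, intensity trend adjusted p = 5.3e-04) and −0.62 (SE 0.13, default limma adjusted p = 0.219, intensity trend adjusted p = 0.0045). The first passed in 10 of 11 further settings, with adjusted p of 0.0635 when the columns were shifted to 1 median. The second passed in 9 of 11 and missed with shifted columns (0.101) and without SB431542 replicate 2 (0.0616).

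Skil, also called SnoN, is a co-repressor that the cell degrades when the pathway is switched on. Its brighter probe set 1452214_at read 1143 and 1079 after SB431542, against 1548 and 1409 in control. That is a fall of 1.33-fold, the smallest among the probe sets that passed, with a difference of −0.41 (SE 0.12, default limma adjusted p = 0.306, intensity trend adjusted p = 0.0054). It missed without SB431542 replicate 2 (0.137) and with shifted columns (0.450), and passed in the other 9 of 11 further settings. The second probe set, 1422054_a_at, read 113 and 124 after SB431542, against 169 and 177 in control. Its difference was larger, −0.55 (SE 0.12), but its SE by the intensity trend was 0.18, against 0.095 for 1452214_at. The second probe set did not pass by the intensity trend (adjusted p = 0.0766, with 0.0321 to 0.458 over 11 further settings).

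In this comparison the intensity trend thus called 4 of 17 probe sets lower, from 3 of 8 genes, and 0 higher, where it called 1.60% of all probe sets lower and 3.38% higher. All of the 17 but the 2 dimmer Pmepa1 probe sets were brighter than at least 69.0% of all probe sets. Without the dimmest 40% the intensity trend called 724 lower and 1733 higher of those left. The shares over all probe sets are thus under those among brighter ones. The 17 had a median difference of −0.17 with 15 below 0, beside a median of −0.03 over all 45037, of which 24028 were below 0. The SB431542 and control arrays did not overlap in 9 of the 17 with SB431542 lower, where that held for 22.1% of all probe sets. By default limma 6 of 17 had an unadjusted p under 0.05, all lower, beside 2826 lower and 3014 higher of all 45037, and the smallest adjusted p was 0.182. Leaving out each array in turn, the intensity trend called between 2 and 5 of the 17, with the 2 reached without SB431542 replicate 2.

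The 5 genes that did not pass were the co-repressors Ski, Tgif1 and Tgif2 and the ligases Smurf1 and Smurf2. Ski, the family member closest to Skil, read 699 and 677 after SB431542, against 756 and 728 in control (1426373_at), and 362 and 439 after SB431542, against 459 and 479 in control (1429192_at). The SB431542 arrays were the lower ones in both probe sets, with differences of −0.11 (SE 0.13) and −0.23 (SE 0.15). Tgif1, a homeodomain co-repressor that also acts outside the pathway at retinoid-responsive genes, read 2683 and 2510 after SB431542, against 2949 and 2439 in control. The control arrays of Tgif1 enclose the treated ones, and its difference was −0.05 (SE 0.15). Its relative Tgif2 was at −0.05 (SE 0.18) in 1434400_at and −0.01 (SE 0.13) in 1431115_at, again with overlapping arrays.

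Smurf1 and Smurf2 are HECT-type ubiquitin ligases that target receptors through Smad7 and also target Smad proteins directly. Smurf1 was at −0.01 (SE 0.13) in 1428395_at and 0.17 (SE 0.15) in 1428396_at. The 3 Smurf2 probe sets did not point one way. Probe set 1454894_at read 614 and 569 after SB431542, against 544 and 510 in control. Probe set 1429046_at read 271 and 247 after SB431542, against 292 and 290 in control. The differences were 0.17 (SE 0.12) and −0.17 (SE 0.13), and −0.14 (SE 0.17) in the third, 1429045_at. Over the 10 probe sets of these 5 genes the differences ran from −0.23 to 0.17, with SEs from 0.12 to 0.18, and the smallest intensity trend adjusted p was 0.373.

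**Figure D2:**
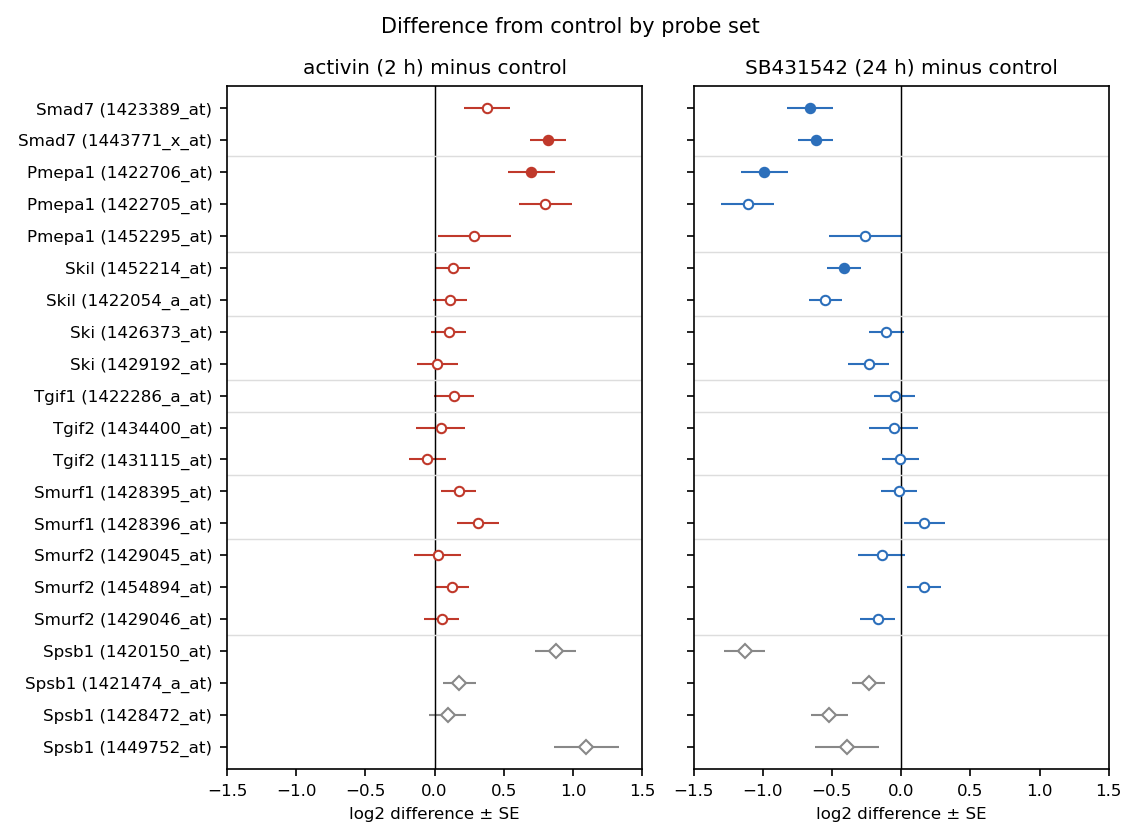
Log2 difference from control (x axes) for each of the 21 probe sets, activin for 2 h on the left and SB431542 for 24 h on the right, with bars for the SE of the default limma fit. Filled circles passed by the intensity trend, open circles did not, and grey diamonds are Spsb1, which was not tested. On the right, 4 circles of Smad7, Pmepa1 and Skil are filled between −0.99 and −0.41, and on the left 2 circles of Smad7 and Pmepa1 are filled at 0.82 and 0.70.

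The comparison of activin with control asked which of the inhibitors differed after 2 h of added ligand, with no vehicle named for the control. By the intensity trend Smad7 and Pmepa1 rose, each in 1 probe set, while default limma called no member. Smad7 1443771_x_at read 500 and 519 on the activin arrays, against 271 and 307 on the control arrays. The activin arrays agree closely and stand clear of both controls, 1.77-fold higher, with a difference of 0.82 (SE 0.13, default limma adjusted p = 0.789, intensity trend adjusted p = 0.0016). It passed in 9 of 11 further settings and missed with shifted columns (0.181) and without activin replicate 2 (0.0831).

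The other Smad7 probe set, 1423389_at, read 687 and 890 after activin, against 580 and 622 in control. The activin arrays were again above both controls but far from each other, and the difference of 0.38 (SE 0.17) did not pass by the intensity trend (adjusted p = 0.333, with 0.0711 to 1.00 over 11 further settings). The 2 probe sets, nearly equal in their fall after SB431542, thus gave unequal values after activin.

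Pmepa1 1422706_at read 488 and 398 after activin, against 286 and 258 in control. It rose 1.62-fold, to 8.78 ± 0.21 (SD, n = 2) on the log2 scale with activin, against 8.09 ± 0.11 in control, a difference of 0.70 (SE 0.17, default limma adjusted p = 0.789, intensity trend adjusted p = 0.0349). This call depended on the arrays kept and on the scaling. It missed without activin replicate 1 (0.304), without activin replicate 2 (0.0841), without control replicate 2 (0.137), with quantile normalization repeated (0.0587) and with shifted columns (0.468), and passed in the other 6 of 11 further settings. The dimmer 1422705_at read 65 and 86 after activin, against 41 and 45 in control, a difference of 0.80 (SE 0.19) that did not pass (intensity trend adjusted p = 0.600, with 0.415 to 0.881 over 11 further settings).

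Skil, lower after SB431542, was little above control after activin. Probe set 1452214_at read 1612 and 1628 after activin, against 1548 and 1409 in control, and 1422054_a_at read 189 and 185 after activin, against 169 and 177 in control. The activin arrays lay above both controls in each probe set, by 0.13 (SE 0.12) and 0.11 (SE 0.12), and neither passed by the intensity trend (adjusted p = 0.852 and 0.959, with 0.667 to 1.00 over the further settings of the first and 0.902 to 1.00 of the second).

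Of Smurf1, 1428395_at read 257 and 235 after activin, against 223 and 213 in control, and 1428396_at read 165 and 152 after activin, against 130 and 125 in control. Both probe sets had activin above control on every array, with differences of 0.17 (SE 0.13) and 0.31 (SE 0.15). For Ski, Tgif1, Tgif2 and Smurf2 the differences lay between −0.05 and 0.14. Over the 10 probe sets of Ski, Tgif1, Tgif2, Smurf1 and Smurf2 the smallest intensity trend adjusted p was 0.805.

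In all, the intensity trend called 2 of 17 probe sets higher after activin, from 2 of 8 genes, and 0 lower, where it called 0.195% of all probe sets higher and 0.0200% lower. Most of the 17 are brighter than most probe sets, and without the dimmest 40% it called 100 higher and 4 lower of those left. The median of the 17 was 0.13 with 16 above 0, beside −0.0011 over all 45037, of which 22221 were above 0. The activin and control arrays did not overlap in 9 of 17 with activin higher, where that held for 14.7% of all probe sets. By default limma 3 of 17 had an unadjusted p under 0.05, all higher, beside 1562 higher and 1235 lower of all 45037. After adjustment 0 of the 17 and 0 of the 45037 passed. The intensity trend called 0 of the 17 without activin replicate 2 and 1 without activin replicate 1 or control replicate 2.

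Set directly against each other, the activin and SB431542 arrays share no control, although their durations of 2 h and 24 h differ. Pmepa1 1422706_at was 3.22-fold higher after activin, a log2 difference of 1.69 (SE 0.17, default limma adjusted p = 0.112, intensity trend adjusted p = 7.0e-10). Smad7 1443771_x_at was 2.71-fold higher, by 1.44 (SE 0.13, default limma adjusted p = 0.0863, intensity trend adjusted p = 2.9e-09), and 1423389_at 2.06-fold higher, by 1.04 (SE 0.17). These 3 probe sets passed in 11 of 11 further settings of the intensity trend, as did Pmepa1 1422705_at, at 1.91 (SE 0.19). The size of that last difference is limited by background, since its SB431542 arrays were under the bacterial intensity of 34.

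Skil differed less between the treatments. It was higher after activin by 0.54 (SE 0.12, intensity trend adjusted p = 3.3e-04, default limma adjusted p = 0.347) in 1452214_at, and by 0.66 (SE 0.12, intensity trend adjusted p = 0.0407, default limma adjusted p = 0.284) in 1422054_a_at. The first passed in 10 of 11 further settings, missing with shifted columns (0.448). The second missed in 6 of 11, with shifted columns (0.236), with a replicate block (0.0549) and without activin replicate 1 (0.204), activin replicate 2 (0.131), SB431542 replicate 1 (0.424) or SB431542 replicate 2 (0.172).

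In this comparison the intensity trend called 6 of 17 probe sets higher after activin, the 2 of Smad7, the 2 brighter ones of Pmepa1 and the 2 of Skil, and 0 lower, where it called 0.802% of all probe sets higher and 1.47% lower. Most of the 17 are brighter than most probe sets, and without the dimmest 40% it called 382 higher and 807 lower of those left. The arrays did not overlap in 12 of 17 with activin higher, beside 18.7% of all. Ski, at 0.21 (SE 0.13) and 0.26 (SE 0.15), Tgif1, at 0.19 (SE 0.15), and the Tgif2, Smurf1 and Smurf2 probe sets, from −0.04 to 0.22, did not pass. Default limma called 0 of 17, with 6 at an unadjusted p under 0.05, all higher, beside 2119 higher and 1952 lower of all 45037.

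Levels over the 3 groups could be put in order for some of the probe sets. For both Smad7 probe sets, both Skil probe sets and Pmepa1 1422706_at and 1422705_at the order was activin above control above SB431542, with no array of one group inside the range of another. The share of all probe sets with such an order of 3 groups was not counted, so the order is a description. The step from control to activin in Skil was 0.13 and 0.11, about as large as the SE of 0.12. For Ski the SB431542 arrays were lowest in both probe sets and activin and control overlapped. For Smurf1 1428395_at the activin arrays were highest and SB431542 and control overlapped. For Tgif2 no order of the groups could be given, since all overlapped in both probe sets.

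Spsb1 was measured by 4 probe sets, and its values are those it was chosen for. Probe set 1420150_at read 429 and 456 after activin, 101 and 120 after SB431542, and 257 and 226 in control. All 3 groups were separate, with log2 differences from control of 0.88 (SE 0.15) after activin and −1.13 (SE 0.15) after SB431542, 1.83-fold higher and 2.19-fold lower. Probe set 1449752_at, designed on the same accession, read 58 and 49 after activin, 19 and 19 after SB431542, and 20 and 31 in control. Only its activin arrays were above the highest bacterial intensity of 34, so its 2.14-fold higher level after activin is limited by background and its SB431542 difference cannot be read.

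The other Spsb1 probe sets moved in the same directions by less. Probe set 1421474_a_at, on the RefSeq transcript, read 175 and 189 after activin, 139 and 134 after SB431542, and 159 and 162 in control, differences of 0.18 (SE 0.12) and −0.23 (SE 0.12). Probe set 1428472_at read 133 and 117 after activin, 82 and 81 after SB431542, and 123 and 111 in control. Its SB431542 arrays were lowest, at −0.52 (SE 0.13), while activin, at 0.09 (SE 0.13), overlapped control. The size of the Spsb1 change thus depended on the probe set read.

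Promoter windows from RefSeq (GRCm38.p6), 250 bases before to 50 after a transcription start, were matched by symbol for 6 of the 9 genes in 10 windows, and those of Smad7, Pmepa1 and Skil were not used here. The Spsb1 window is shown as that of the gene with the opposed values, and the Smurf2 window as that of a gene that did not pass. Capitals mark the Smad box CAGAC or its reverse GTCTG, and GGCGCC, a GC-rich site also bound by Smad proteins, both strands read and no overlap between marked sites. The windows are Spsb1, chr4:149954957-149955256, minus strand, and Smurf2, chr11:106920666-106920965, minus strand, each 5′ to 3′ along the gene.
Spsb1: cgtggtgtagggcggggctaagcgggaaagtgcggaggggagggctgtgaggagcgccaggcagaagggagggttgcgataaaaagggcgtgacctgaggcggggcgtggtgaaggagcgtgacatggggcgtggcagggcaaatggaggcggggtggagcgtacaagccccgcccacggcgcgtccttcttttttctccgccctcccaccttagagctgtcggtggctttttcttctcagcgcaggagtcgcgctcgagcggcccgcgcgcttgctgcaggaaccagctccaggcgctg
Smurf2: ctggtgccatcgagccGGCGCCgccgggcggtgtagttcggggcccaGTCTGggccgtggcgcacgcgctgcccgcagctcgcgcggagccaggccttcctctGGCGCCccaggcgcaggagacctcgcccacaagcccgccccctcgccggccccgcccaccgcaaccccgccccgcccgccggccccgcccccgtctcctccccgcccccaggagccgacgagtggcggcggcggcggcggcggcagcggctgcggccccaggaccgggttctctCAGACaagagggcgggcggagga

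The Spsb1 window held 0 matches to the Smad box, to GGCGCC or to the Foxh1 core AATNNACA, and the Smurf2 window held 2 Smad boxes, at −203 and 28 from the start site, and 2 GGCGCC sites, at −234 and −147. Among 32851 RefSeq windows of the same length, 49.6% held a Smad box, 11.9% GGCGCC and 12.2% the Foxh1 core. Smurf1 held 2 Smad boxes, Ski 1 GGCGCC site and Tgif2 none of the 3 motifs. Of the 5 Tgif1 windows, 3 held a Smad box and 2 the Foxh1 core. These counts describe letters in a short window and say nothing of sites elsewhere at these genes.

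The genes whose pattern over the 6 arrays was most like that of Pmepa1 were sought among 514 genes with a mean log2 value of at least 6 and a range of at least 1, by Pearson's r over 6 arrays that fall in 3 groups, as a description. They were Pmaip1, a BH3-only protein of the Bcl2 family (r = 0.990), Spsb1 (0.988), Slc7a7, an amino acid transporter subunit (0.975), Irf1, an interferon-regulated transcription factor (0.975), and Fgf15, a secreted ligand (0.974). Those most like Spsb1 were Pmepa1 (0.988), Il17rd (0.984), Ctsw (0.980), Irf1 (0.978) and Dok2 (0.974). Spsb1 was chosen for its opposed values on these arrays, and the range limit used the same 6 arrays. The high r between Spsb1 and other genes is therefore no evidence of a link. Of Spsb1's neighbours, Il17rd, a membrane inhibitor of FGF signalling, had mean log2 values of 9.84 after activin, 8.73 after SB431542 and 9.43 in control. Irf1 stood at 9.60 after activin, 8.48 after SB431542 and 9.31 in control.

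The other negative regulators of the pathway, a list of 18 genes that includes extracellular antagonists, ligases and phosphatases, had a median difference of −0.0062 after SB431542, beside −0.0021 over all genes. By the intensity trend 3 fell and 2 rose, where 2.23% of all genes were called lower and 4.25% higher, and by default limma 2 fell, beside 0.0220% of all genes. Those that fell were Lefty1, at −5.53 (SE 0.30, default limma adjusted p = 0.0341), Lefty2, at −5.05 (SE 0.13, default limma adjusted p = 0.0030), and Fst. Both Lefty2 arrays and 1 of the 2 Lefty1 arrays with SB431542 were under the highest bacterial value, so the sizes of these 2 differences are limited by background. Fst encodes follistatin, which binds and neutralises activin, and had log2 values of 5.93 and 6.49 after SB431542, against 7.67 and 8.09 in control, a difference of −1.67 (SE 0.26, default limma adjusted p = 0.179, intensity trend adjusted p = 5.8e-07).

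Those that rose were Smad6 and Lemd3. Smad6, the inhibitory Smad of the BMP branch, had log2 values of 8.04 and 8.34 after SB431542, against 7.65 and 7.34 in control, a difference of 0.70 (SE 0.19, default limma adjusted p = 0.287, intensity trend adjusted p = 0.0076). Its relative Smad7 fell in the same comparison, as given above. Lemd3, an inner nuclear membrane protein that binds receptor-activated Smads, was at 0.57 (SE 0.13, default limma adjusted p = 0.240, intensity trend adjusted p = 0.0026). Bambi, a pseudoreceptor, was at 0.10, the ligases Nedd4, Nedd4l, Wwp1, Wwp2 and Itch were between −0.13 and 0.07, and the phosphatase Ppm1a was at −0.04.

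After activin 1 of these 18, Lefty2, rose by the intensity trend, by 1.39 on the log2 scale (SE 0.13, default limma adjusted p = 0.789, intensity trend adjusted p = 2.0e-06), and 0 fell, where 0.137% of all genes were called higher and 0.0110% lower. Lefty1 was at 1.42 (SE 0.30), Fst at −0.16 (SE 0.26) and Smad6 at 0.21 (SE 0.19). Nodal, the ligand itself, was at 0.14 (SE 0.13) after activin and −1.10 (SE 0.13) after SB431542. Id3, a BMP target and inhibitor of basic helix-loop-helix factors, was at −1.04 (SE 0.12) after activin and 0.48 (SE 0.12) after SB431542.

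**Figure D3:**
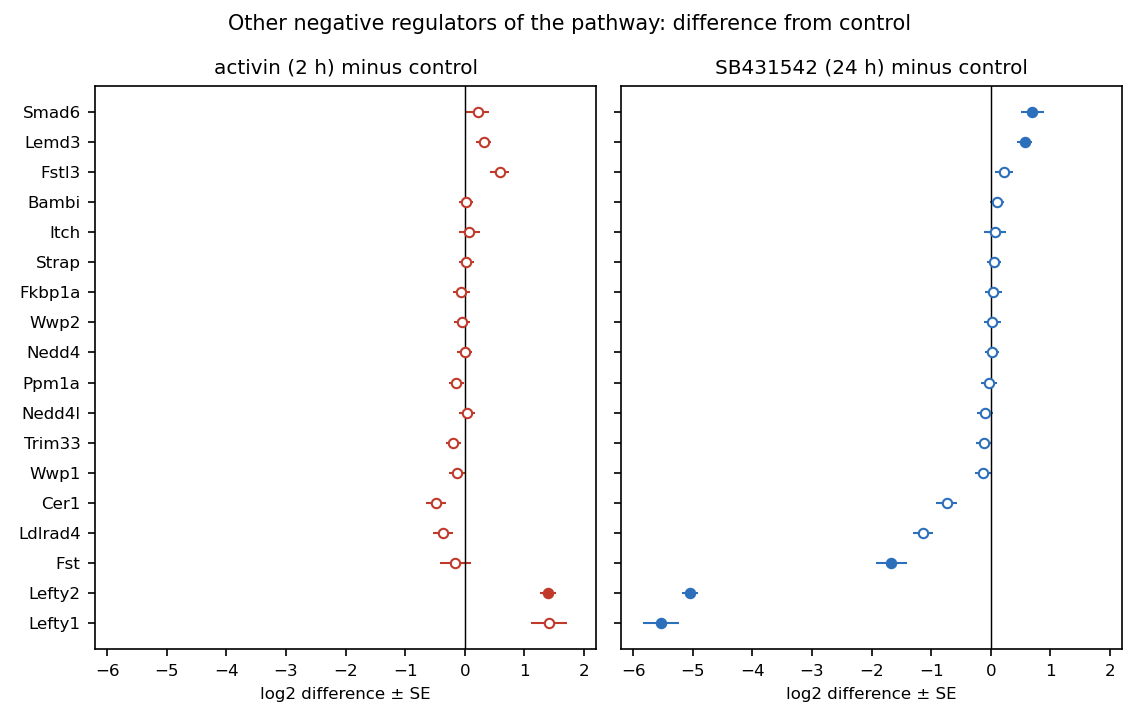
Log2 difference from control (x axes) for 18 other negative regulators of the pathway, 1 probe set per gene, activin for 2 h on the left and SB431542 for 24 h on the right, with bars for the SE of the default limma fit and filled circles for genes that passed by the intensity trend. On the right Lefty1, Lefty2 and Fst are filled at −5.53, −5.05 and −1.67 and Smad6 and Lemd3 at 0.70 and 0.57, and on the left only Lefty2 is filled. The sizes for Lefty1 and Lefty2 on the right are limited by background.

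The partners through which the inhibitors act were also looked at. Of 13 measured genes that control the inhibitory proteins, among them the ligase Rnf111 (Arkadia), which degrades Smad7, Skil and Ski, and the cullin and elongin subunits that Spsb1 joins, 1 rose after SB431542 and 0 fell by the intensity trend, where 4.25% of all genes were called higher and 2.23% lower. With lists this short, single calls in this and the next lists are no result about the lists. The gene was Cul1, a ligase scaffold, at 0.36 (SE 0.14, intensity trend adjusted p = 0.0161, default limma adjusted p = 0.377), while Rnf111 was at 0.14 and Cul5 at 0.07. Of 8 measured co-repressor partners 1 rose, Ctbp2, at 0.28 (SE 0.12, intensity trend adjusted p = 0.0104, default limma adjusted p = 0.407), and the deacetylases Hdac1, Hdac2 and Hdac3 were at 0.18, 0.04 and −0.06. Of 13 receptors and Smads, Tgfbr2, the type II receptor targeted by Spsb1, rose by 0.84 (SE 0.31, intensity trend adjusted p = 0.0427, default limma adjusted p = 0.361), and Tdgf1, the Nodal co-receptor, fell by 0.26 on the log2 scale (SE 0.13, intensity trend adjusted p = 0.0241, default limma adjusted p = 0.449). Smad2, Smad3 and Smad4 were at 0.03, 0.36 and 0.21. After activin 0 genes of these 3 lists passed by either setting.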

How the data were processed

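RNA of E14Tg2a cells was measured on 6 Affymetrix mouse expression arrays. The authors deposited 1 intensity per probe set and array, summarised with RMA per the submitters' processing notes. Median intensities of the deposited arrays were 38 and 49 with activin, 43 and 41 with SB431542 and 46 and 37 in control. They thus differed within groups, and shifting the columns to 1 median removes that difference in medians. With that shift the SE by the intensity trend went from 0.12 to 0.21 for Smad7 1423389_at and from 0.095 to 0.22 for Skil 1452214_at. For the dim Pmepa1 1422705_at it went from 0.35 to 0.30. Which scaling is the better one was not tested. The values are whole numbers from 6 to 26405 on a linear scale, which no label states and which was read from the values. No scanner files were used here, so background correction could not be varied. The number of arrays limits the precision.

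Log2 was taken of the deposited intensities. Of 45101 probe sets, 64 array controls were left out and 45037 tested, of which 34945 carried 1 gene symbol, 932 several and 9160 none. Limma 3.58.1 in R 4.3.3 was fitted with 1 mean per group over all 6 arrays (3 residual degrees of freedom), with Benjamini-Hochberg adjustment over all probe sets and a threshold of 0.05. The default setting is the main test, and the intensity trend with robust estimation the alternative. The fitting code was run on simulated data only to check that added changes were recovered in size, and no limit was set there on false calls. For genes outside the 9, the brightest of the probe sets with 1 symbol was used.

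The members, the gene lists and the tests were chosen with earlier results of these data known. Named genes are all probe sets of the 9 genes, up to 4 genes per further list and comparison that passed by the intensity trend, Lefty1, Lefty2, Nodal and Id3, and the 5 genes most like Pmepa1 and Spsb1. Bambi, Ppm1a, Rnf111, Cul5, Cdx2, Elf5, Smad2, Smad3, Smad4 and the named Nedd4-family ligases and deacetylases were added for their roles after their values were seen.

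The arrays of a group are numbered 1 and 2 in the sample titles, and these numbers were used. The sample descriptions carry other numbers, which no groups share and which therefore give no pairing. Deviations of same-numbered arrays correlated at −0.14 between activin and control, 0.022 between SB431542 and control and −0.093 between activin and SB431542, so the numbers were not taken as pairs. Alternatives were quantile normalization, columns shifted to 1 median, leaving out the dimmest 40% of probe sets, adding 16 before log2, a replicate block, the mean of a gene's probe sets in place of the brightest, and leaving out each array. Promoter windows were searched with Python 3.11.15.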

Additional observations from a re-analysis of the deposited data

How the results depend on the processing

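Calls depended on how limma estimated the spread, with prior degrees of freedom of 2.51 by default and a median of 34.3 with the intensity trend. In SB431542 against control, activin against control and activin against SB431542, in that order, default limma called 7, 0 and 9 of all probe sets and 0, 0 and 0 of the 17 members, and the intensity trend called 2242, 97 and 1024 of all and 4, 2 and 6 members. Default limma called 40, 0 and 49 with quantile normalization repeated (members 0, 0 and 1), 791, 78 and 412 with columns shifted to 1 median (members 2, 0 and 4), 21, 0 and 30 without the dimmest 40% (members 0, 0 and 1), and 41, 0 and 64 with 16 added (members 0, 0 and 2). With a replicate block it called 0, 0 and 1, with a crossed block (activin numbers exchanged, chosen after seeing the data) 2, 0 and 3, and 0 members under either. It called 0 to 0 in each comparison with any array left out. The intensity trend, whose further settings other than leaving out an array were also chosen after seeing the data, called 873, 37 and 500 with shifted columns (members 2, 0 and 4), 157 in activin against control with a replicate block, and 1 member there with quantile normalization. Over arrays left out it called 947 to 2560, 21 to 201 and 402 to 1493 of all, and 2 to 5, 0 to 2 and 5 to 6 members. The cause of these differences was not tested.

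Every sign that turned belonged to a probe set or gene that passed in no setting. Quantile normalization gave activin minus SB431542 values of 0.017 for Tgif2 1431115_at and 0.022 for Smurf2 1454894_at. Shifted columns gave activin minus control values of −0.044 for Ski 1429192_at, −0.020 for Tgif2 1434400_at, −0.042 for Smurf2 1429045_at and −0.013 for Smurf2 1429046_at. The mean of a gene's probe sets gave 0.077 for Smurf1 in SB431542 minus control and −0.0031 for Tgif2 in activin minus control, and by that mean default limma called Pmepa1 in activin against SB431542, at 1.38 (adjusted p = 0.0468). With 1 array left out, SB431542 minus control ran from −0.18 to 0.089 for Tgif1, −0.24 to 0.13 for Tgif2 1434400_at, −0.079 to 0.065 for Tgif2 1431115_at, −0.081 to 0.052 for Smurf1 1428395_at, −0.31 to 0.033 for Smurf2 1429045_at and −0.62 to 0.096 for Pmepa1 1452295_at. Activin minus control ran from −0.053 to 0.096 for Ski 1429192_at, −0.14 to 0.23 for Tgif2 1434400_at, −0.13 to 0.029 for Tgif2 1431115_at, −0.089 to 0.13 for Smurf2 1429045_at, −0.015 to 0.12 for Smurf2 1429046_at and −0.070 to 0.65 for Pmepa1 1452295_at. Activin minus SB431542 ran from −0.0087 to 0.21 for Tgif2 1434400_at, −0.12 to 0.036 for Tgif2 1431115_at, −0.0058 to 0.30 for Smurf1 1428396_at, −0.0096 to 0.34 for Smurf2 1429045_at and −0.095 to 0.014 for Smurf2 1454894_at. The cause of these turns was not tested. Arrays of Pmepa1 1422705_at and 1452295_at and Spsb1 1449752_at were under the highest bacterial intensity, which limits the sizes of their differences.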
